A study of Homo sapiens with 24 samples.

Results

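The mitochondrial genome (chrM) transcripts were followed through every condition of the series. Members were all genes on that chromosome in GENCODE v29, matched by Ensembl identifier to the count tables, and 35 of its 37 genes were found among the 57500 genes of the tables. They were 13 mRNA genes and 22 tRNA genes. The ribosomal RNA genes MT-RNR1 and MT-RNR2 had no identifier in the tables and were not analysed here.

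Total RNA was isolated from multicellular spheroids of FaDu and SAS, established cell lines of head and neck squamous cell carcinoma (HNSCC). Libraries were then prepared and sequenced, and the paper does not state how RNA was selected for them. Spheroids were untreated (control), irradiated (RT, at 7 Gy in FaDu and at 10 Gy in SAS), heated at 42.5 °C for 60 min (HT), or heated and irradiated directly afterwards (HT + RT), and were collected 0.5 h later. Each of the 8 groups had 3 libraries from independent experiments, and total counts ran from 15203484 to 29452514 per library with a median of 18378943. In every FaDu group the replicate 1 library stood apart: its chi-square distance per gene from replicates 2 and 3 was 15.1 to 22, while that between replicates 2 and 3 was 3.51 to 5.09. FaDu results were therefore computed a second time with replicates 2 and 3 only, a setting chosen after the values were seen.

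Both strands of the circular mitochondrial genome are transcribed as long polycistronic RNAs, in which tRNA genes lie between most mRNA and rRNA genes. Nuclear-encoded nucleases release the tRNAs at their ends, and this also frees the flanking mRNAs. The mRNAs encode core subunits of respiratory complexes I, III and IV and of the ATP synthase (complex V), while every tRNA serves the mitochondrial ribosome.

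The tRNA genes that the results turn on are printed from the GRCh38 sequence of their GENCODE v29 transcripts, 5′ to 3′ on the coding strand, with the anticodon in capitals, so that the amino acid each one carries can be read. MT-TF (chrM:577-647, plus strand, phenylalanine), MT-TV (chrM:1602-1670, plus, valine) and MT-TL1 (chrM:3230-3304, plus, leucine) flank the rRNA genes. MT-TI (chrM:4263-4331, plus, isoleucine), MT-TQ (chrM:4329-4400, minus, glutamine) and MT-TM (chrM:4402-4469, plus, methionine) form the cluster between MT-ND1 and MT-ND2. MT-TS1 (chrM:7446-7514, minus, serine) and MT-TD (chrM:7518-7585, plus, aspartate) lie between MT-CO1 and MT-CO2. MT-TT (chrM:15888-15953, plus, threonine) follows MT-CYB.
MT-TF: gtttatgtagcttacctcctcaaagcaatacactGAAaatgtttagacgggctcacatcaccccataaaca
MT-TV: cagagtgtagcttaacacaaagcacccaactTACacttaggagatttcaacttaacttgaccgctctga
MT-TL1: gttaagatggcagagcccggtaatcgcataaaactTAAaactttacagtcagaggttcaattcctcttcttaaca
MT-TI: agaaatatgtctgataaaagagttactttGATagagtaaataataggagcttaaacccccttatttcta
MT-TQ: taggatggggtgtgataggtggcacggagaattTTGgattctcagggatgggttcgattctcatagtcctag
MT-TM: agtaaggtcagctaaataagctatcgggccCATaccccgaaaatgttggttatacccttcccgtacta
MT-TS1: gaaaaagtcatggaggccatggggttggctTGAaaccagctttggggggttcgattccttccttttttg
MT-TD: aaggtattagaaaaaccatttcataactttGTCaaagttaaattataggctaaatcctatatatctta
MT-TT: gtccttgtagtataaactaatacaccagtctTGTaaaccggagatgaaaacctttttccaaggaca

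The treatment labels were checked on heat shock genes and the cell type on markers. HSPA6, HSPA1A, HSPA1B and DNAJB1, chaperone genes induced by heat, were 4 of 4 altered upward in each of the 4 comparisons with heat, and 0 of 4 passed the edgeR test after RT alone in either line (0 in FaDu and 1 in SAS at an unadjusted p under 0.05, and 0 by DESeq2). HSPA6 had 0.525, 0.509 and 0.294 CPM (counts scaled to library size) in the FaDu control libraries and 3930, 4230 and 4990 after HT, against 0.87, 0.342 and 1.06 and 1550, 1940 and 2400 in SAS. All 10 epithelial markers were detected in all 24 libraries, with KRT8 and KRT5 the most abundant in total counts. After HT in SAS KRT6A, KRT8 and KRT18 rose and SFN fell, and after HT in FaDu TP63 fell, genes named after their values were seen. Of 12 markers of leukocytes, endothelium, fibroblasts and muscle, PTPRC, CD3E, MYH2 and DES had 0 counts in 19, 21, 21 and 15 of the 24 libraries, and PECAM1, COL1A2 and PDGFRB in 1, 3 and 5. CD14, VWF, CDH5, ACTA2 and COL1A1 were detected in all 24, with 2954, 896, 4329, 2294 and 14776 counts in all. COL1A1, a collagen gene among the 12, rose after heat in SAS: it had 1.2, 0.969 and 1.83 CPM in the control libraries, 30.5, 16.3 and 24 with HT and 24.4, 24.1 and 23.7 with HT + RT. Its log2 fold changes were 4.18 ± 0.28 (adjusted p = 6.35e-07) and 4.23 ± 0.18 (adjusted p = 1.18e-08). In FaDu all HT libraries were above the controls for COL1A1, and those after HT + RT overlapped them. Of the 6 such markers tested in FaDu, DESeq2 called 1 higher after HT and 1 after HT + RT, and edgeR 0. After HT in SAS 2 of the 5 tested were lower at an unadjusted p under 0.05 by edgeR. The summed CPM of the 12 markers was 34.9, 37.4 and 27.4 in the SAS control libraries, 35.6, 41.6 and 27.8 after RT, 57.5, 49.6 and 45.3 with HT and 55.1, 59.7 and 48.3 with HT + RT. In FaDu the same sums were 56.2, 64.7 and 67, then 52.3, 66.4 and 70.2, then 66.6, 65 and 82.8, then 60, 73.6 and 82.8, in the same order of groups. COL1A1 was the most abundant of the 12 in every FaDu library and in every heated SAS library except HT replicate 2, where the endothelial gene CDH5 was, as in every unheated SAS library. The part of these cells or genes in the mitochondrial results was not tested.

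Mitochondrial transcripts took a larger share of all counts in FaDu than in SAS controls, while treated and control libraries overlapped within each line. FaDu had 1.98, 2.77 and 2.49% of counts on chrM in the control libraries, 1.93, 2.13 and 2.33% after RT, 2.82, 2.07 and 1.89% with HT and 3.26, 2.51 and 2.10% with HT + RT. SAS had 1.25, 1.45 and 1.72% in the control libraries, 1.61, 2.27 and 1.57% after RT, 2.36, 1.36 and 1.50% with HT and 2.05, 2.20 and 1.70% with HT + RT. The control libraries of the cell lines did not overlap. At these depths the counting error was small: the exact binomial 95% interval of FaDu control replicate 1 ran from 1.97% to 1.98%, which covers counting error only. In bulk RNA, fewer mitochondrial transcripts per cell and fewer cells carrying them cannot be told apart.

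In FaDu the chrM share averaged 2.44% in heated and 2.27% in unheated libraries (n = 6 each, two-sided exact permutation p = 0.525, adjusted over 16 tests 0.677), and 3 of 6 same-numbered pairs were higher with heat. In SAS the means were 1.86% and 1.64% (exact permutation p = 0.330, adjusted 0.544). Leaving out 1 library, heated minus unheated ran from 0.0077 points (without HT + RT replicate 1) to 0.281 (without HT replicate 3) in FaDu, against 0.171 with all libraries. In SAS it ran from 0.119 (without HT replicate 1) to 0.343 (without RT replicate 2), against 0.218. Irradiated minus unirradiated libraries differed by 0.293 percentage points in SAS (exact permutation p = 0.170, adjusted 0.540, 4 of 6 pairs higher) and by 0.0394 points in FaDu. The FaDu sign turned without control replicate 1 (-0.0321), HT replicate 2 (-0.0127), HT replicate 3 (-0.0497) or HT + RT replicate 1 (-0.137).

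The tRNA genes held 0.842, 0.890 and 0.986% of the chrM counts in the FaDu control libraries, 1.14, 1.34 and 1.11% after RT, 1.16, 1.56 and 1.49% with HT and 1.12, 1.43 and 1.52% with HT + RT. SAS values were 1.07, 1.08 and 1.08% in the control libraries, 1.24, 1.17 and 1.40% after RT, 1.43, 1.59 and 1.55% with HT and 1.60, 1.41 and 1.73% with HT + RT. All 6 heated SAS libraries lay above all 6 unheated ones, and in FaDu the ranges overlapped. Heated minus unheated was 0.377 points in SAS (exact permutation p = 0.005, the smallest that 400 arrangements allow, adjusted 0.08, 6 of 6 pairs higher). In FaDu it was 0.329 points (exact permutation p = 0.02, adjusted 0.16, 5 of 6 pairs higher), so neither passed the correction. Genes on the minus strand, MT-ND6 and 8 tRNA genes, averaged 2.82% of chrM counts in heated and 2.59% in unheated FaDu libraries, and 2.09% and 2.0% in SAS (adjusted exact permutation p = 0.54 and 0.633).

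**Figure D1:**
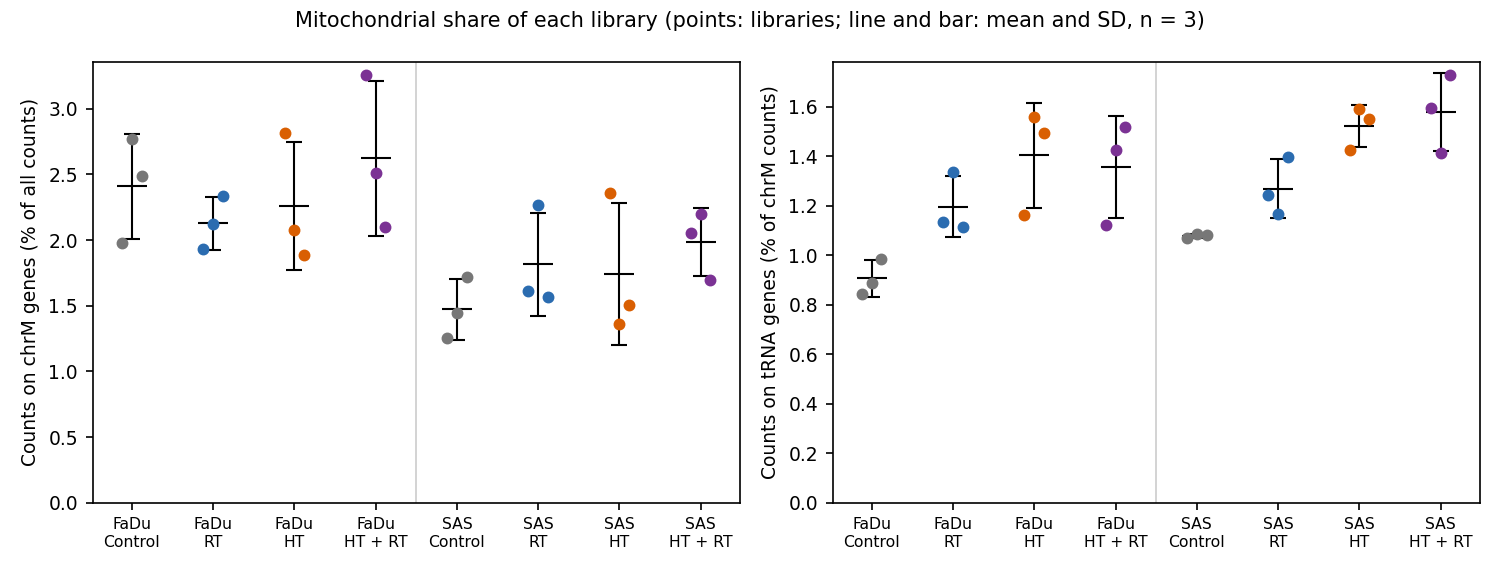
Percent of all counts on chrM and tRNA counts as percent of chrM counts (vertical axes), with 1 point per library in each of the 8 groups. The heated SAS libraries all lie above the unheated ones for the tRNA share, while the chrM shares of treated and control libraries overlap within each cell line.

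Per kilobase of transcript, MT-CO2, a catalytic subunit of cytochrome c oxidase (complex IV), was the most abundant mitochondrial mRNA in the controls of both lines. MT-ND5 of complex I had the lowest control mean, close to that of MT-ND6, and in treated SAS libraries the mean of MT-ND6 was lower. The FaDu control means in CPM per kb (± SD, n = 3) were 3710 ± 558 for MT-CO2, 3110 ± 425 for MT-ATP8, 3000 ± 648 for MT-CO1, 2830 ± 406 for MT-CO3 and 2710 ± 408 for MT-ATP6. Next came MT-ND4 (2500 ± 287), MT-ND4L (2220 ± 274), MT-ND3 (1860 ± 169), MT-ND2 (1380 ± 69.6), MT-ND1 (1080 ± 150), MT-CYB (999 ± 153), MT-ND6 (745 ± 210) and MT-ND5 (690 ± 173). Neighbours in this order lay within their summed SD except MT-ND3 over MT-ND2 and MT-ND2 over MT-ND1. In SAS controls the order ran from MT-CO2 (2220 ± 302) and MT-CO1 (1980 ± 255) through MT-ND4 (1740 ± 266), MT-ATP8 (1690 ± 218), MT-CO3, MT-ND3, MT-ND4L, MT-ATP6 (1350 ± 214), MT-ND1, MT-ND2 and MT-CYB (1080 ± 206) to MT-ND6 (416 ± 81.8) and MT-ND5 (407 ± 87.9). There the step from MT-CYB to MT-ND6 alone exceeded the summed SD. MT-ATP8 and MT-ATP6 overlap by 46 bases, so their counts are not independent.

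**Figure D2:**
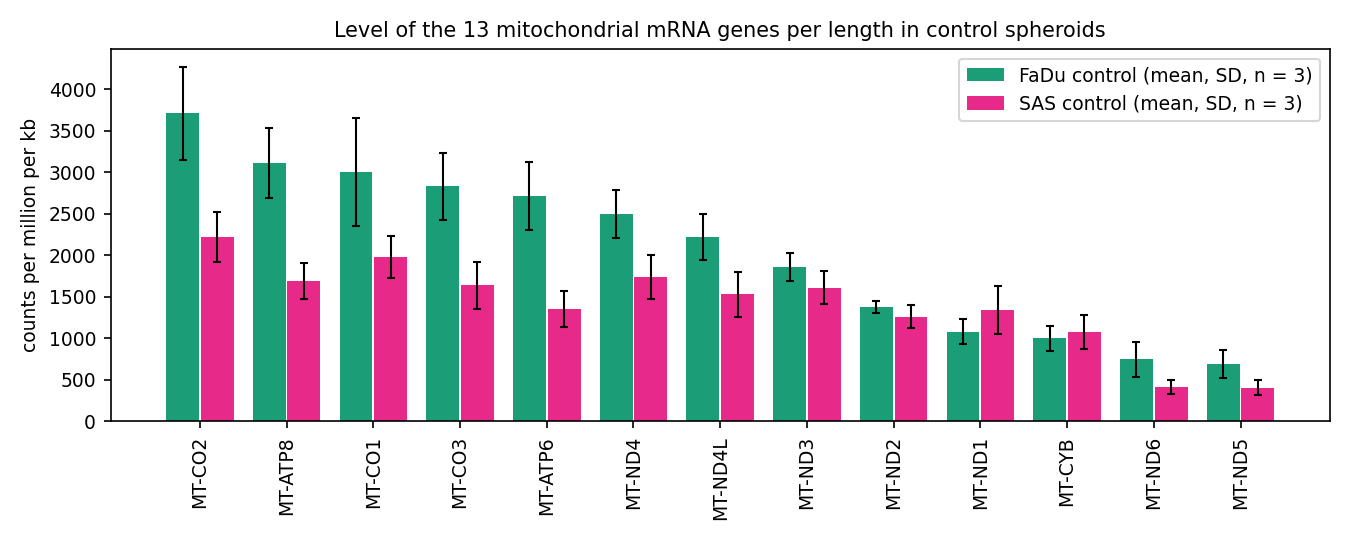
Mean level of the 13 mitochondrial mRNAs in CPM per kb (vertical axis) in the FaDu and SAS control libraries, with SD over 3 libraries as error bars. MT-CO2 is highest, and MT-ND5 and MT-ND6 are the 2 lowest in both lines.

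Before treatment, most mitochondrial mRNAs were more abundant in FaDu than in SAS. By edgeR, 10 of 13 mRNAs were higher in FaDu at adjusted p under 0.05, beside 38.6% of all genes tested, and 0 were lower (36.4% of all genes; 0 also at an unadjusted p under 0.05). DESeq2 gave 10 in all. In either direction 75% of all genes passed. With the further requirement of an absolute log2 fold change over 1, which defines an altered gene here, MT-ATP6 was the 1 altered mRNA, beside 38.1% of all genes. The median log2 fold change was 0.63 over the 13 mRNAs and 0.03 over all genes tested. By complex, the medians were 0.97 for complex V, 0.77 for complex IV and 0.55 for complex I, and MT-CYB of complex III stood at -0.08 ± 0.14. Leaving out 1 library, 9 to 11 mRNAs passed and 7 to 12 chrM genes were altered, against 10 altered with all libraries: 12 without FaDu control replicate 1 or SAS control replicate 3 and 7 without SAS control replicate 2. With the replicate block, 10 mRNAs were higher and MT-ND1 lower. That block pairs libraries of different lines by number, and their residuals were not shared (correlations of same-numbered controls -0.0189 to 0.0982).

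After heat followed by radiation in SAS, 11 of 13 mitochondrial mRNAs were higher than in the controls, each by less than a doubling. These passed at adjusted p under 0.05 by edgeR and 0 were lower, beside 25.1% of all genes tested, and DESeq2 gave 9. MT-CO3 and MT-ND3 did not pass, a pair named after their values were seen. The log2 fold changes of the 13 ran from 0.12 to 0.69 with a median of 0.49, against 0.00 over all genes. With all 4 SAS groups in 1 fit the count was 7, and with the replicate number as a block 12, MT-ND3 included (35.5% of all genes). None was altered in edgeR or DESeq2, while 6.36% of all genes were.

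After HT alone in SAS, 0 of 13 passed by edgeR (5 at an unadjusted p under 0.05, all higher, and 0 by DESeq2), beside 23.6% of all genes. The median was 0.33, and the count became 4 without SAS control replicate 3 or SAS HT replicate 2 (MT-CO2, MT-ND4, MT-ND5 and MT-ND6 in either case) and 2 without SAS HT replicate 3 (MT-ND4L and MT-ND4). The replicate block gave 6 after HT: MT-CO2, MT-ND4L, MT-ND4, MT-ND5 and MT-ND6 higher and MT-ND3 lower (29.4% of all genes). With no filter 9 were higher and 1 lower (14.1% of all genes), and with the filter on low counts set on the FaDu libraries, chosen after the values were seen, MT-ND4 passed. After RT in SAS, 0 passed (6 unadjusted, all higher, and 0 by DESeq2), beside 0.0749% of all genes, and all 13 log2 fold changes were positive with a median of 0.30. With the block 5 passed after RT (1.96% of all genes), all higher: MT-ND1, MT-ND2, MT-ATP8, MT-ATP6 and MT-CO3. With no filter 11 did (0.598% of all genes), all higher. No mRNA was altered after HT or RT in SAS by edgeR or DESeq2 (altered genes made up 6.03% and 0.0272% of all genes).

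In FaDu at most 1 mRNA per treatment passed by edgeR with all libraries, the filter and no block, and the sign of the median after heat depended on the replicate 1 libraries. After RT 0 of 13 passed by edgeR (2 at an unadjusted p under 0.05, both lower, and MT-ND4 by DESeq2), beside 0.0322% of all genes, with a median of -0.19. The replicate block gave 4 (2.01% of all genes), all lower: MT-CO1, MT-CO3, MT-ND4L and MT-ND4. After HT 0 passed (0 unadjusted, 0 by DESeq2), beside 17.6% of all genes, with a median of 0.03. Without FaDu HT replicate 1, 4 passed, all lower: MT-ND2, MT-ATP8, MT-ATP6 and MT-CO3. After HT + RT 1 passed, MT-ND1, and 0 by DESeq2, beside 19.3% of all genes, with a median of 0.25. That count was 0 without any single FaDu control library or without HT + RT replicate 1 or 2, and 5 with the replicate block (32.9% of all genes), all higher: MT-ND1, MT-ND4L, MT-ND4, MT-ND5 and MT-ND6. With no filter the counts were 3 lower after RT, 1 lower after HT and 7 higher after HT + RT, beside 0.455%, 11% and 12.6% of all genes.

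With FaDu replicates 2 and 3 only, 5 mRNAs were lower after RT: MT-CO1, MT-ATP8, MT-ATP6, MT-ND4L and MT-ND4. After HT 9 were lower in that setting, and all 13 log2 fold changes were negative. With HT + RT MT-ND1 was higher and MT-CO2, MT-ATP8, MT-ATP6 and MT-CO3 were lower. Of all genes 1.21%, 28.7% and 31.7% passed in those fits after RT, HT and HT + RT. The medians were -0.22 with RT, -0.33 with HT and -0.05 with HT + RT. None of the 13 was altered in a FaDu treatment comparison by edgeR or DESeq2 with all libraries. With all libraries 0.00643% of all genes were altered with RT, 4.97% with HT and 5.72% with HT + RT. The comparisons within a line share their control libraries, so their values are not independent.

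**Figure D3:**
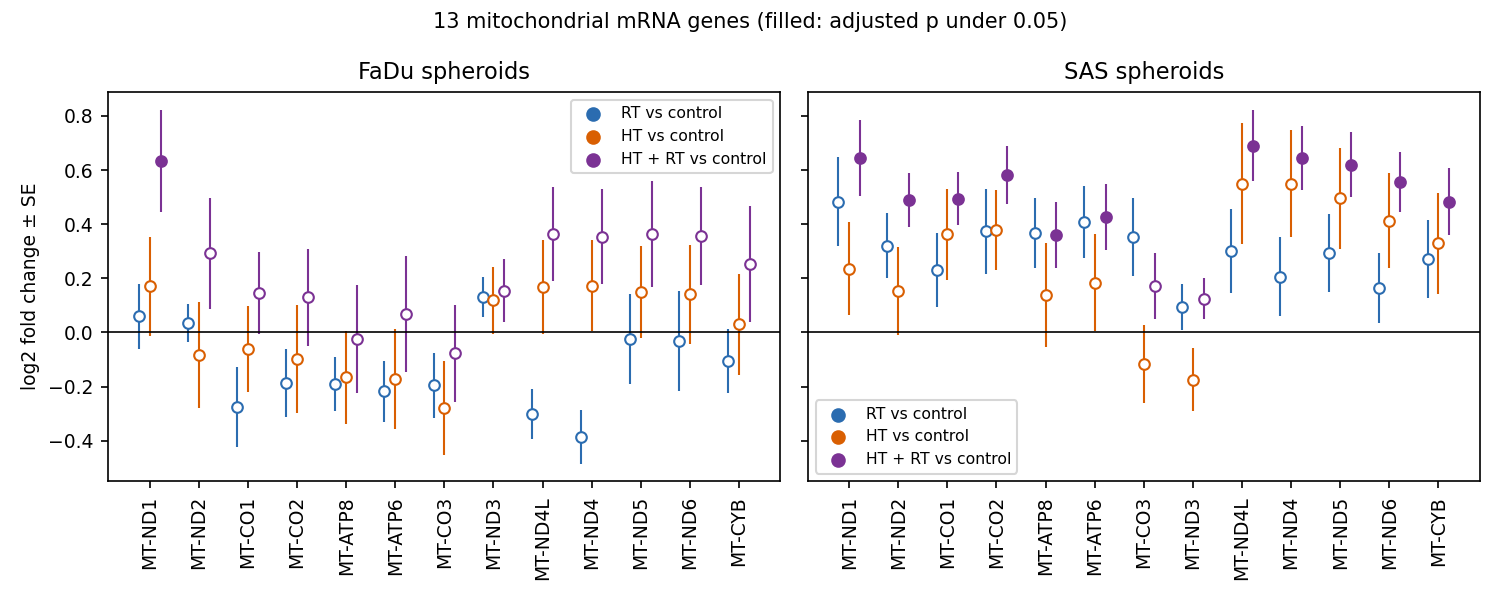
Log2 fold change against the control group (vertical axis, points, with standard error) of the 13 mitochondrial mRNAs (horizontal axis). Each cell line has its own panel, with the treatments in different colours, and filled points have an adjusted p under 0.05. Most filled points are in SAS after HT + RT, and none exceeds a log2 fold change of 1.

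Of the 7 complex I mRNAs, 6 were higher after HT + RT in SAS. MT-ND4, a proton-pumping subunit of complex I, had in FaDu 3040, 3830 and 3450 CPM in the control libraries, 2580, 2400 and 2910 after RT, 5030, 3370 and 3080 with HT, and 5680, 3950 and 3380 with HT + RT. SAS spheroids had 2030, 2380 and 2760 CPM in the control libraries, 2340, 3480 and 2460 after RT, 4870, 2600 and 2800 with HT, and 3740, 4110 and 3010 with HT + RT of it. After RT the FaDu libraries were all lower than the controls, and after HT + RT the SAS libraries were all higher. The log2 fold changes (± SE) of MT-ND4 were -0.39 ± 0.10 (adjusted p = 0.442) after RT in FaDu and 0.65 ± 0.12 (adjusted p = 0.002) after HT + RT in SAS. With the replicate block the FaDu RT value was -0.38 ± 0.06 (adjusted p = 8.06e-05, over all alternatives 3.07e-06 to 1). The difference between the lines in the response to RT was -0.59 ± 0.20 (adjusted p = 1) and, with the block, -0.57 ± 0.12 (adjusted p = 0.0437, over all alternatives 5.58e-09 to 1).

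MT-ND6, the complex I subunit that is the only mRNA read from the minus strand, had 278, 499 and 397 CPM in the control libraries, 335, 375 and 437 after RT, 482, 393 and 401 with HT, and 550, 488 and 445 with HT + RT in FaDu. In SAS it had 186, 203 and 267 CPM in the control libraries, 228, 280 and 226 after RT, 369, 215 and 269 with HT, and 313, 316 and 303 with HT + RT. The SAS libraries after HT + RT were all above the controls, and the FaDu controls were all above the SAS controls. MT-ND6 differed by 0.56 ± 0.11 (adjusted p = 0.00321) after HT + RT in SAS and by 0.87 ± 0.19 (adjusted p = 0.00166) between FaDu and SAS controls. The line difference was altered at 1.07 without FaDu control replicate 1 and 1.03 without SAS control replicate 3, with adjusted p from 3.84e-31 to 0.0117 over all alternatives. MT-ND1, a membrane subunit beside the quinone site, was chosen after its values were seen: in FaDu it had 866, 1130 and 1090 CPM in the control libraries, 969, 1010 and 1240 after RT, 1530, 1000 and 899 with HT, and 2090, 1420 and 1210 with HT + RT. All HT + RT libraries lay above the controls, with a log2 fold change of 0.63 ± 0.19 (adjusted p = 0.0442). This call was lost by DESeq2, without any single FaDu control library and without HT + RT replicate 1 or 2. SAS libraries had 1020, 1250 and 1570 CPM in the control libraries, 1530, 2250 and 1590 after RT, 1910, 1210 and 1320 with HT, and 1950, 2230 and 1640 with HT + RT of MT-ND1, again all higher after HT + RT (0.64 ± 0.14, adjusted p = 0.00569).

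Complex III has 1 mitochondrial subunit, MT-CYB, the cytochrome b that carries electrons across the complex. FaDu libraries had 947, 1290 and 1180 CPM in the control libraries, 973, 1010 and 1200 after RT, 1530, 1030 and 888 with HT, and 1830, 1240 and 946 with HT + RT. SAS libraries had 1020, 1190 and 1490 CPM in the control libraries, 1320, 1810 and 1340 after RT, 2050, 1140 and 1350 with HT, and 1710, 1860 and 1440 with HT + RT. The HT + RT and control libraries overlapped in both lines. The SAS change after HT + RT passed the test at 0.48 ± 0.12 (adjusted p = 0.014). The change no longer passed at 0.48 by DESeq2, 0.48 with all 4 groups in 1 fit, 0.46 without SAS HT + RT replicate 1 and 0.41 without SAS HT + RT replicate 2, and its adjusted p ran from 7.23e-20 to 0.075 over the alternatives.

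Complex IV was represented by MT-CO2, which accepts electrons from cytochrome c. In FaDu, MT-CO2 had 2100, 2830 and 2680 CPM in the control libraries, 1960, 2180 and 2540 after RT, 3190, 2080 and 1750 with HT, and 3560, 2480 and 2180 with HT + RT. In SAS, MT-CO2 had 1350, 1450 and 1750 CPM in the control libraries, 1790, 2550 and 1540 after RT, 2430, 1490 and 1860 with HT, and 2260, 2460 and 1850 with HT + RT. All SAS libraries after HT + RT were above the SAS controls, and all FaDu controls were above the SAS controls, while in FaDu HT replicate 1 lay above and HT replicates 2 and 3 below all controls. MT-CO2 rose by 0.58 ± 0.11 (adjusted p = 0.00209) after HT + RT in SAS and stood 0.77 ± 0.12 (adjusted p = 0.000154) higher in FaDu than in SAS controls. MT-CO3, chosen after its values were seen, stood at -0.12 ± 0.14 (adjusted p = 0.614) after HT in SAS. Its response to RT differed between the lines with the replicate block (-0.54 ± 0.10, adjusted p = 0.017, over all alternatives 9.08e-07 to 1), and without the block the value was -0.54 ± 0.21 (adjusted p = 1).

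Complex V mRNAs, for the ATP synthase membrane subunits MT-ATP8 and MT-ATP6, stood higher in FaDu than in SAS and passed the treatment test after HT + RT in SAS. MT-ATP6 had 1570, 2120 and 1840 CPM in the control libraries, 1500, 1500 and 1750 after RT, 2150, 1450 and 1240 with HT, and 2630, 1730 and 1370 with HT + RT in FaDu. SAS had 812, 863 and 1090 CPM in the control libraries, 1160, 1470 and 1030 after RT, 1390, 785 and 888 with HT, and 1270, 1330 and 982 with HT + RT. FaDu controls were all above SAS controls, and treated libraries overlapped their controls in every comparison. Between the lines MT-ATP6 differed by 1.03 ± 0.13 (adjusted p = 2.55e-05) and was altered; it was not altered at 0.92 without FaDu control replicate 2, 0.94 without SAS control replicate 1 and 0.98 without SAS control replicate 2, with adjusted p from 1.67e-54 to 0.000414. After HT + RT in SAS it changed by 0.43 ± 0.12 (adjusted p = 0.0229), a call lost at 0.42 by DESeq2, 0.42 with all 4 groups in 1 fit, 0.33 without SAS control replicate 1, 0.38 without SAS control replicate 2, 0.38 without SAS HT + RT replicate 1 and 0.35 without SAS HT + RT replicate 2 (adjusted p from 4.62e-14 to 0.114).

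MT-ATP8 had 552, 728 and 649 CPM in the control libraries, 558, 526 and 607 after RT, 740, 509 and 446 with HT, and 846, 571 and 457 with HT + RT in FaDu. In SAS it had 320, 326 and 401 CPM in the control libraries, 427, 548 and 374 after RT, 530, 275 and 320 with HT, and 489, 462 and 347 with HT + RT. Again the control libraries of the lines did not overlap and the treated libraries overlapped their controls. The lines differed by 0.91 ± 0.11 (adjusted p = 2.61e-05), which was altered at 1.02 without FaDu control replicate 1 and 1.01 without SAS control replicate 3 (adjusted p from 1.03e-36 to 0.000407). After HT + RT in SAS the change was 0.36 ± 0.12 (adjusted p = 0.0481), and the call was lost at 0.36 with all 4 groups in 1 fit, 0.29 without SAS control replicate 1, 0.31 without SAS control replicate 2, 0.26 without SAS HT + RT replicate 1 and 0.32 without SAS HT + RT replicate 2 (adjusted p from 1.54e-07 to 0.222).

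Many tRNA genes rose after heat in both lines, and none was lower at adjusted p under 0.05 in any treatment comparison with all libraries. In SAS, 13 of the 19 tRNA genes tested were higher after HT (DESeq2 13), where 23.6% of all genes passed in either direction, and 11 of 18 after HT + RT (DESeq2 12), where 25.1% did. FaDu had 5 of 19 after HT (DESeq2 6), beside 17.6% of all genes, and 8 of 17 after HT + RT (DESeq2 10), beside 19.3%. With the replicate block these FaDu counts were 16 and 11, beside 32.7% and 32.9% of all genes in the same fits, and the SAS counts 14 and 13, beside 29.4% and 35.5%. These block counts hold genes whose lower group alone did not pass the filter. They are MT-TR, MT-TW and MT-TM in the 16 and MT-TM in the 11. In SAS they are MT-TA, MT-TM and MT-TT in the 14 and MT-TM and MT-TT in the 13. After RT alone 1 of 18 passed in SAS (DESeq2 3, 0.0749% of all genes, and with the replicate block 8 and 1.96%) and 0 of 17 in FaDu by edgeR (3 at an unadjusted p under 0.05, 0 by DESeq2, 0.0322% of all genes, and with the replicate block 4 and 2.01%). With FaDu replicates 2 and 3 only, 8 of 19 were higher with HT and 8 of 19 with HT + RT, beside the shares given above for those fits, and with RT MT-TT was higher and MT-TL2 lower. The medians over the tRNA genes tested were 0.19, 0.57 and 0.74 in FaDu after RT, HT and HT + RT, and 0.42, 1.24 and 1.19 in SAS, against 0.00 to 0.01 over all genes. Some genes were tested because libraries of their higher group passed the filter on low counts, so these counts and medians describe and do not test the tRNA genes as a whole. MT-TA after HT in SAS and MT-TR after HT in FaDu had 0 of 3 control libraries over the filter, and their tests in these fits are not used. MT-TT in SAS and MT-TM in both lines had 2 of 3. Of the tRNA genes whose lower group alone passed the filter, 10 of 16 were higher with HT and 9 of 16 with HT + RT in SAS, and 5 and 7 of 15 in FaDu. The fits were repeated with the filter set on libraries outside the comparison, those of the other line for treatments, a setting chosen after the values were seen. There 11 and 11 of 19 were higher with HT and HT + RT in SAS, and 5 of 21 and 9 of 20 in FaDu, beside 20.9%, 22.4%, 17% and 18.3% of all genes.

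In the treatment comparisons the altered chrM genes were all tRNA genes: 4 in FaDu after HT, 7 after HT + RT, 11 in SAS after HT, 9 after HT + RT and 1 after RT, with 12 different tRNA genes altered in at least 1 treatment comparison, MT-TA after HT in SAS included. Without the genes whose lower group alone did not pass the filter (MT-TM, MT-TT in SAS and MT-TA) these counts are 4, 6, 8, 7 and 0. With the filter set on the other line they are 4, 7, 9, 8 and 1, where MT-TS1 and MT-TD cannot be tested in SAS and MT-TA is altered after HT and HT + RT. Among all genes 4.97%, 5.72%, 6.03%, 6.36% and 0.0272% were altered in the same comparisons with the usual filter. With the replicate block the FaDu HT count was 6, with MT-TM added as well as MT-TR, whose controls did not pass the filter, and those of the other heat comparisons were the same numbers. FaDu after RT had 0 (5 chrM genes at an unadjusted p under 0.05, 0 by DESeq2, 1 with the replicate block: MT-TT, 1.01 ± 0.21, adjusted p = 0.00539, over all alternatives 0.00539 to 1). With FaDu replicates 2 and 3 only the FaDu counts were 0 with RT, 4 with HT and 5 with HT + RT. The single SAS gene after RT, MT-TT, became 0 without SAS control replicate 1, 2 or 3 or RT replicate 2 or 3, and 2 with the replicate block, MT-TD and MT-TT. By strand, 8 of 11 plus-strand tRNA genes tested were altered after HT in SAS with a median of 1.54, and 3 of 8 minus-strand genes with a median of 0.32. The 3 include MT-TA, whose controls did not pass the filter and whose test is not used. The 8 include MT-TM and MT-TT, whose lower group alone did not pass it. After HT + RT in SAS the medians were 1.68 on the plus and 0.42 on the minus strand. In FaDu the plus-strand medians were 0.89 with HT and 0.74 with HT + RT, and the minus-strand medians 0.43 and 0.62. These medians also hold genes whose lower group alone did not pass the filter, and the difference between strands was not tested. The strand is that of the annotated gene: the strand setting of the counting is not given, so sense and antisense reads cannot be told apart.

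**Figure D4:**
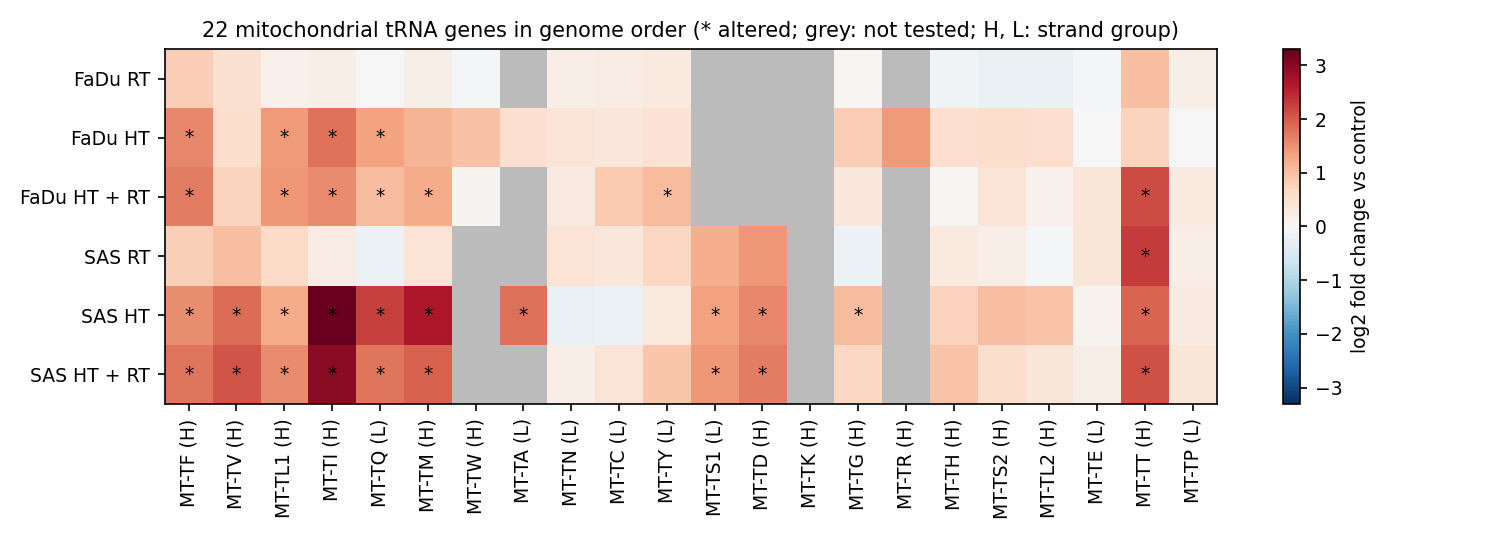
Log2 fold change against the control group (colour) of the 22 mitochondrial tRNA genes in genome order (horizontal axis) in the 6 treatment comparisons (vertical axis). H marks plus-strand and L minus-strand genes, asterisks mark altered genes and grey marks genes not tested. The largest values are those of MT-TI after HT and HT + RT in SAS, followed by MT-TM after HT in SAS. The control libraries of MT-TA in SAS did not pass the filter.

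The cluster of MT-TI, MT-TQ and MT-TM, for isoleucine, glutamine and methionine tRNAs, had the largest log2 fold changes after HT in SAS. Values are raw counts, not scaled to depth, while fold changes and statements on overlap use scaled values. MT-TI had 25, 22 and 15 raw counts in the control libraries, 22, 33 and 21 after RT, 286, 147 and 174 with HT, and 156, 204 and 121 with HT + RT in SAS. FaDu libraries had 16, 11 and 22 raw counts in the control libraries, 21, 12 and 24 after RT, 49, 57 and 42 with HT, and 40, 27 and 83 with HT + RT of MT-TI. All heated libraries were above the controls in both lines, and the libraries after RT overlapped them. The log2 fold changes of MT-TI were 3.27 ± 0.31 (adjusted p = 1.48e-05) with HT and 2.99 ± 0.26 (adjusted p = 7.4e-06) with HT + RT in SAS. In FaDu they were 1.80 ± 0.27 (adjusted p = 0.0027) and 1.55 ± 0.29 (adjusted p = 0.00601).

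MT-TQ lies on the opposite strand and shares 3 bases with MT-TI. It had 49, 29 and 39 raw counts in the control libraries, 33, 49 and 23 after RT, 273, 149 and 142 with HT, and 127, 134 and 123 with HT + RT in SAS. In FaDu it had 37, 40 and 34 raw counts in the control libraries, 45, 25 and 43 after RT, 78, 94 and 74 with HT, and 82, 55 and 82 with HT + RT. Again all heated libraries exceeded the controls of their line and those after RT did not separate. MT-TQ changed by 2.25 ± 0.30 (adjusted p = 0.000218) and 1.76 ± 0.21 (adjusted p = 8.72e-05) after HT and HT + RT in SAS, and by 1.34 ± 0.21 (adjusted p = 0.00361) and 1.01 ± 0.27 (adjusted p = 0.0291) in FaDu. The last of these was no longer altered at 0.99 with no filter on low counts, 0.82 with FaDu replicates 2 and 3 only, 1.11 without FaDu control replicate 2, 0.85 without FaDu control replicate 3, 0.77 without FaDu HT + RT replicate 1 and 1.03 without FaDu HT + RT replicate 2, with adjusted p from 0.000705 to 0.113.

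MT-TM had 10, 10 and 13 raw counts in the control libraries, 13, 26 and 8 after RT, 107, 61 and 48 with HT, and 36, 49 and 40 with HT + RT in SAS. FaDu had 12, 9 and 24 raw counts in the control libraries, 14, 14 and 24 after RT, 31, 24 and 29 with HT, and 31, 20 and 57 with HT + RT. All heated libraries were above the controls after scaling. MT-TM rose by 2.67 ± 0.38 (adjusted p = 0.000357) and 1.94 ± 0.29 (adjusted p = 0.000515) in SAS. In FaDu it was altered after HT + RT (1.23 ± 0.33, adjusted p = 0.0323) and short of the threshold after HT (1.13 ± 0.34, adjusted p = 0.0534), where it was altered with the block (1.15 ± 0.34, adjusted p = 0.0156, over all alternatives 0.0156 to 0.164). In both lines 2 of 3 control libraries were over the filter. With the filter set on the other line MT-TM stayed altered after HT in SAS (2.67, adjusted p = 0.000153, over all alternatives 6.75e-16 to 0.00309), after HT + RT in SAS (1.93, adjusted p = 0.000352, over all alternatives 5.09e-07 to 0.00361) and after HT + RT in FaDu (1.23, adjusted p = 0.0318, with the range below). The FaDu HT + RT call was lost at 1.15 without FaDu control replicate 1, 1.01 without FaDu control replicate 2, 1.18 without FaDu HT + RT replicate 1 and 1.12 without FaDu HT + RT replicate 3, with adjusted p from 0.00435 to 0.133. For the mRNAs on either side of the cluster, the values after HT in SAS were 0.23 ± 0.17 for MT-ND1 and 0.15 ± 0.16 for MT-ND2, and neither passed. After HT in FaDu they were 0.17 ± 0.18 for MT-ND1 and -0.08 ± 0.20 for MT-ND2. A read counted to a tRNA gene can come from a mature tRNA or from an uncleaved transcript, and these tables cannot tell the sources apart. The paper isolated RNA with the RNeasy Mini kit, and how much RNA of tRNA length was recovered was not tested. The changes are therefore in reads over tRNA genes and not in measured amounts of mature tRNA.

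**Figure D5:**
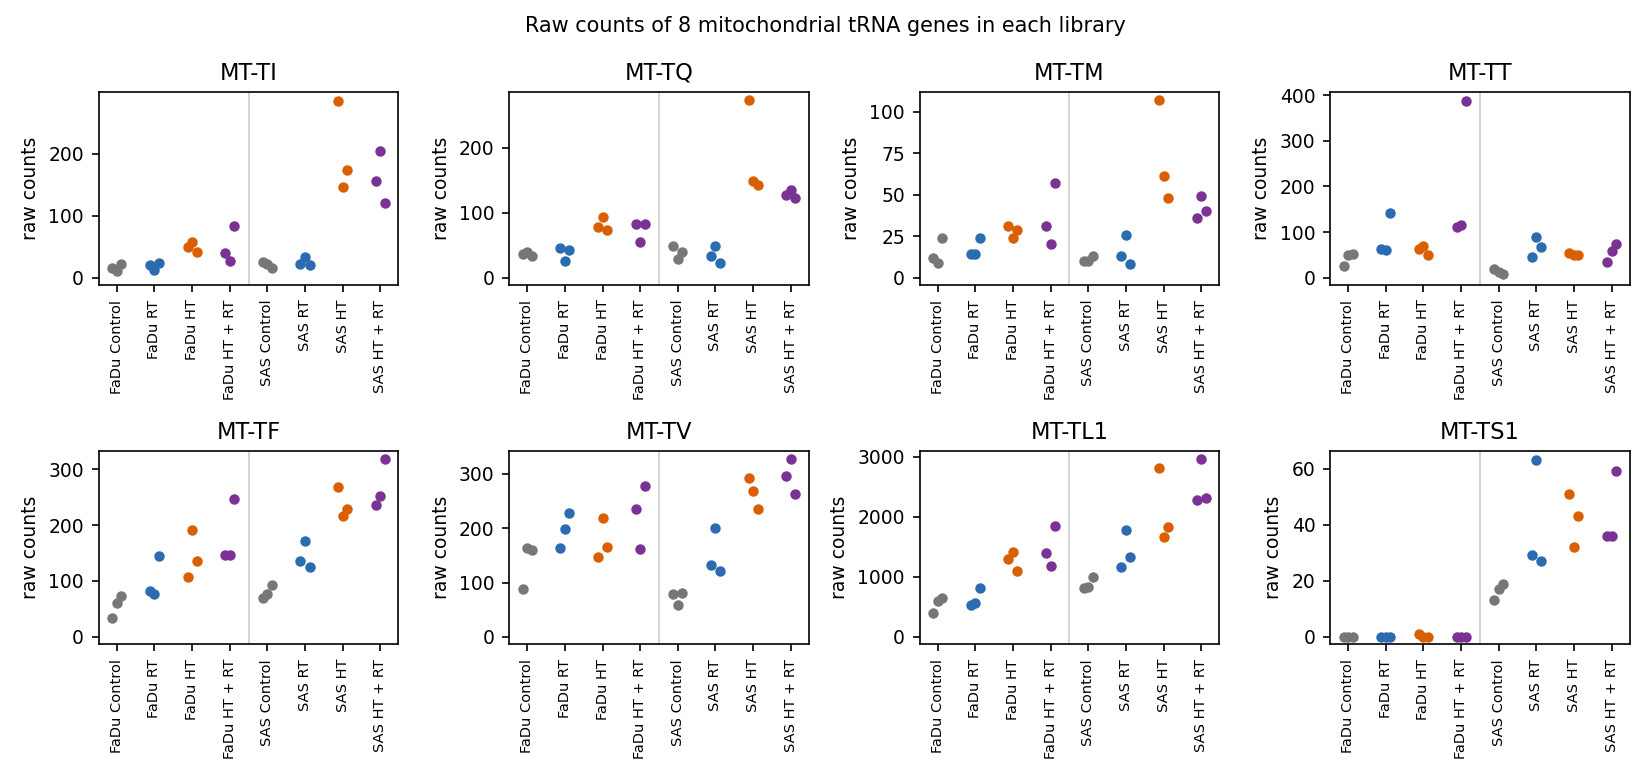
Raw counts (vertical axes) of MT-TI, MT-TQ, MT-TM, MT-TT, MT-TF, MT-TV, MT-TL1 and MT-TS1, with 1 point per library in each of the 8 groups. MT-TI, MT-TQ and MT-TM are high in the heated libraries, and MT-TS1 is at or near 0 in FaDu.

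The tRNA genes that flank the rRNA genes rose after heat as well, MT-TF and MT-TL1 in both lines and MT-TV in SAS, with MT-TV in FaDu past the test when the replicate block was used. MT-TF, the phenylalanine tRNA gene next to the heavy-strand promoter, had 34, 61 and 73 raw counts in the control libraries, 82, 77 and 145 after RT, 108, 191 and 135 with HT, and 146, 146 and 246 with HT + RT in FaDu. SAS had 70, 77 and 93 raw counts in the control libraries, 136, 171 and 125 after RT, 269, 216 and 229 with HT, and 236, 252 and 318 with HT + RT. Treated libraries were all above the controls in all 6 comparisons, RT included. MT-TF rose by 1.57 ± 0.26 (adjusted p = 0.00405) with HT and 1.69 ± 0.21 (adjusted p = 0.000745) with HT + RT in FaDu, and by 1.54 ± 0.18 (adjusted p = 6.53e-05) and 1.77 ± 0.17 (adjusted p = 1.31e-05) in SAS. After RT the values were 0.82 ± 0.24 (adjusted p = 0.601) in FaDu and 0.79 ± 0.18 (adjusted p = 0.255) in SAS, which did not pass. With the block they passed in FaDu (0.83 ± 0.19, adjusted p = 0.01, over all alternatives 0.01 to 1) and in SAS (0.79 ± 0.16, adjusted p = 0.00884, over all alternatives 0.00329 to 1). Control levels were lower in FaDu than in SAS (-0.74 ± 0.25, adjusted p = 0.0191). That difference no longer passed at -0.60 without SAS control replicate 3, with adjusted p from 0.00305 to 0.0709.

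MT-TL1, a leucine tRNA gene just before MT-ND1, had the most counts of these. In FaDu it had 403, 605 and 652 raw counts in the control libraries, 524, 560 and 814 after RT, 1300, 1417 and 1102 with HT, and 1390, 1172 and 1837 with HT + RT. In SAS it had 811, 822 and 995 raw counts in the control libraries, 1164, 1784 and 1330 after RT, 2809, 1657 and 1836 with HT, and 2279, 2961 and 2306 with HT + RT. All heated libraries were above their controls, and after RT the SAS libraries were too. MT-TL1 changed by 1.41 ± 0.15 (adjusted p = 0.000422) and 1.44 ± 0.15 (adjusted p = 0.000279) in FaDu after HT and HT + RT. In SAS the values were 1.24 ± 0.19 (adjusted p = 0.000661) and 1.55 ± 0.12 (adjusted p = 2.6e-06), and the first of them was not altered at 0.92 without SAS HT replicate 1 (adjusted p from 2.29e-52 to 0.00513). FaDu controls differed from SAS controls by -0.88 ± 0.14 (adjusted p = 0.000202), a difference that was altered at -1.0 without FaDu control replicate 2 (adjusted p from 1.69e-18 to 0.00128).

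The valine tRNA gene MT-TV, between the rRNA genes, had 79, 58 and 81 raw counts in the control libraries, 132, 200 and 122 after RT, 293, 268 and 236 with HT, and 296, 328 and 263 with HT + RT in SAS. FaDu had 88, 164 and 160 raw counts in the control libraries, 164, 199 and 228 after RT, 147, 219 and 165 with HT, and 235, 161 and 278 with HT + RT. Treated libraries were all above the controls in all 6 comparisons after scaling. MT-TV rose by 1.84 ± 0.17 (adjusted p = 1.02e-05) with HT and 2.07 ± 0.18 (adjusted p = 6.7e-06) with HT + RT in SAS. In FaDu the values were 0.57 ± 0.22 (adjusted p = 0.116) and 0.74 ± 0.23 (adjusted p = 0.0514), which did not pass. With the replicate block both passed, at 0.58 ± 0.13 (adjusted p = 0.00345, over all alternatives 0.00345 to 0.312) and 0.73 ± 0.16 (adjusted p = 0.000889, over all alternatives 0.00011 to 0.134). The response of this gene differed between the lines: FaDu minus SAS was -1.24 ± 0.29 (adjusted p = 0.0206) for HT and -1.30 ± 0.31 (adjusted p = 0.0181) for HT + RT. MT-TV was the 1 altered chrM gene of 34 tested for the HT difference, beside 2.74% of all genes, and the 1 of 33 for HT + RT, beside 3.4%; DESeq2 gave MT-TI as well for each. The HT call was lost without FaDu control replicate 2 (-1.03), FaDu control replicate 3 (-1.23) or SAS control replicate 2 (-1.10), and the HT + RT call without FaDu control replicate 2 (-1.09), with adjusted p from 1.9e-05 to 0.0614 and from 1.69e-06 to 0.0528. Control levels of MT-TV were 0.70 ± 0.24 (adjusted p = 0.0194) higher in FaDu, which no longer passed at 0.50 without FaDu control replicate 2 and 0.56 without SAS control replicate 2 (adjusted p from 0.000959 to 0.0921).

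No other chrM gene passed this test by edgeR with all libraries, the filter on low counts and no block. With no filter, 9 mRNAs passed for RT, 7 for HT and 6 for HT + RT, all negative for FaDu minus SAS, beside 0.109%, 3.7% and 4.51% of all genes. Of the tRNA genes in those fits, 2 were positive and 2 negative for HT, 1 positive and 2 negative for HT + RT, and 0 passed for RT. The block added MT-CO3 and MT-ND4 for RT and MT-TC, positive, for HT and for HT + RT. For RT edgeR gave 0 of 34 at adjusted p under 0.05, beside 0.00595% of all genes positive and 0% negative, and 0% of all genes were altered. Of the 34, 10 had an unadjusted p under 0.05, all negative for FaDu minus SAS, and DESeq2 gave 0. For HT, MT-TI was altered beside MT-TV with the replicate block or without SAS HT replicate 2, and MT-TT with FaDu replicates 2 and 3 only. For HT + RT, MT-TI was added with the block, without FaDu HT + RT replicate 3 and without SAS HT + RT replicate 3. The altered count for HT + RT with FaDu replicates 2 and 3 only was 1, and 6 mRNAs then passed at adjusted p under 0.05, all negative. For MT-TI the larger response by value was in SAS, with FaDu minus SAS at -1.44 ± 0.47 (adjusted p = 0.0961) for HT and -1.40 ± 0.42 (adjusted p = 0.0606) for HT + RT, and the block brought the second to -1.42 ± 0.35 (adjusted p = 0.00545, over all alternatives 0.00545 to 0.183). The doses differed between the lines wherever radiation was given.

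MT-TT, the threonine tRNA gene after MT-CYB, was the 1 mitochondrial gene altered after radiation alone by edgeR with the filter and no block, in SAS. It had 18, 13 and 8 raw counts in the control libraries, 45, 88 and 68 after RT, 53, 49 and 50 with HT, and 35, 58 and 73 with HT + RT in SAS. In FaDu it had 25, 50 and 51 raw counts in the control libraries, 62, 61 and 141 after RT, 62, 69 and 50 with HT, and 111, 115 and 388 with HT + RT. Treated libraries were all above the controls in all 6 comparisons, and FaDu HT + RT replicate 3 was the highest in raw counts. MT-TT rose by 2.30 ± 0.33 (adjusted p = 0.0332) after RT, 1.93 ± 0.30 (adjusted p = 0.000656) with HT and 2.09 ± 0.31 (adjusted p = 5e-04) with HT + RT in SAS. In FaDu it rose by 2.16 ± 0.32 (adjusted p = 0.00192) after HT + RT, while RT (1.0 ± 0.30, adjusted p = 0.619) and HT (0.73 ± 0.27, adjusted p = 0.101) did not pass. With the block RT passed as given above, and HT at 0.73 ± 0.24 (adjusted p = 0.0266, over all alternatives 0.0266 to 0.233). In SAS 2 of 3 control libraries were over the filter. With the filter set on the FaDu libraries MT-TT stayed altered after RT (2.30, adjusted p = 0.0123, with the range below), HT (1.92, adjusted p = 0.000405, over all alternatives 9.79e-08 to 0.00334) and HT + RT (2.09, adjusted p = 0.000277, over all alternatives 6.68e-10 to 0.00272). The SAS RT call was lost at 2.56 without SAS control replicate 1, 2.31 without SAS control replicate 2, 2.08 without SAS control replicate 3, 2.09 without SAS RT replicate 2 and 2.29 without SAS RT replicate 3, with adjusted p from 2.14e-11 to 0.204.

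For MT-CYB, directly upstream of MT-TT, the log2 fold change after RT in SAS was 0.27 ± 0.14, which did not pass. MT-TP, the proline tRNA gene on the other strand, had 328, 358 and 334 raw counts in the control libraries, 374, 467 and 383 after RT, 491, 391 and 407 with HT, and 358, 444 and 515 with HT + RT in SAS. FaDu had 725, 788 and 1143 raw counts in the control libraries, 833, 994 and 1245 after RT, 754, 820 and 684 with HT, and 996, 831 and 1419 with HT + RT. In SAS the RT and the HT + RT libraries were all above the controls, and in FaDu all groups overlapped. After HT + RT in FaDu MT-TP stood at 0.32 ± 0.11 (adjusted p = 0.0699) and passed with the block (0.31 ± 0.09, adjusted p = 0.00594, over all alternatives 0.00594 to 0.197). MT-TP passed after HT + RT in SAS at 0.39 ± 0.10 (adjusted p = 0.0159), and the call was lost at 0.32 without SAS control replicate 1 and 0.33 without SAS HT + RT replicate 3 (adjusted p from 0.00167 to 0.0678). Between the controls it stood 1.15 ± 0.10 (adjusted p = 1.85e-06) higher in FaDu.

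MT-TS1 and MT-TD, serine and aspartate tRNA genes on opposite strands between MT-CO1 and MT-CO2, were nearly absent from FaDu. MT-TS1 had 13, 17 and 19 raw counts in the control libraries, 29, 63 and 27 after RT, 51, 32 and 43 with HT, and 36, 36 and 59 with HT + RT in SAS. FaDu had 0 counts of MT-TS1 in 11 of 12 libraries and 1 count in HT replicate 1, against 425 counts over the 12 SAS libraries. Taking 3 counts over the group as the floor for the FaDu controls, MT-TS1 was at least 16.8-fold higher in SAS controls. MT-TD had 11, 11 and 13 raw counts in the control libraries, 19, 46 and 34 after RT, 40, 29 and 40 with HT, and 36, 38 and 36 with HT + RT in SAS. FaDu had 5 counts of MT-TD in all, 3 in control replicate 3 and 2 in HT replicate 1, and 0 in the other 10 libraries. The ratio of SAS to FaDu controls was 12 for MT-TD, with a 95% counting interval of 3.79 to 61.1. Both genes passed the filter between the controls through the SAS libraries only, so their edgeR test is not used there.

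In SAS all treated libraries were above the controls for both genes. MT-TS1 rose by 1.32 ± 0.32 (adjusted p = 0.0101) with HT and 1.43 ± 0.30 (adjusted p = 0.00491) with HT + RT, and after RT the value was 1.21 ± 0.38 (adjusted p = 0.574). MT-TD rose by 1.60 ± 0.32 (adjusted p = 0.00325) and 1.68 ± 0.30 (adjusted p = 0.00152), and after RT the value was 1.43 ± 0.36 (adjusted p = 0.379), which passed with the replicate block (1.39 ± 0.35, adjusted p = 0.0351, over all alternatives 0.0161 to 1). Their FaDu responses were not detectable at this depth. The mRNAs on either side, MT-CO1 and MT-CO2, had 0.36 ± 0.17 and 0.38 ± 0.15 after HT in SAS and did not pass, although MT-CO2 did with the block.

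Of the other minus-strand tRNA genes, MT-TY was altered in 1 treatment comparison. MT-TY, for tyrosine, had 259, 477 and 642 raw counts in the control libraries, 426, 584 and 722 after RT, 584, 526 and 524 with HT, and 769, 692 and 1393 with HT + RT in FaDu. SAS had 220, 218 and 319 raw counts in the control libraries, 288, 572 and 412 after RT, 325, 299 and 357 with HT, and 402, 511 and 505 with HT + RT. After HT + RT the libraries were all above the controls in both lines, and in FaDu after HT as well. MT-TY changed by 1.05 ± 0.20 (adjusted p = 0.00672) after HT + RT in FaDu and 0.93 ± 0.15 (adjusted p = 0.00105) in SAS. The FaDu value was not altered at 0.81 with FaDu replicates 2 and 3 only and 0.81 without FaDu control replicate 1 (adjusted p from 7.5e-23 to 0.0292), and the SAS value was altered at 1.16 without SAS control replicate 3 (adjusted p from 1.26e-12 to 0.0059). With the block MT-TY passed in the other treatment comparisons as well: in FaDu at 0.34 ± 0.09 (adjusted p = 0.0287, over all alternatives 0.0287 to 1) with RT and 0.50 ± 0.16 (adjusted p = 0.0263, over all alternatives 0.00123 to 0.289) with HT, and in SAS at 0.67 ± 0.13 (adjusted p = 0.00497, over all alternatives 1.34e-05 to 1) with RT and 0.35 ± 0.12 (adjusted p = 0.0354, over all alternatives 0.00824 to 0.477) with HT. FaDu controls were higher by 0.62 ± 0.24 (adjusted p = 0.0374), which no longer passed at 0.53 without FaDu control replicate 2, 0.45 without FaDu control replicate 3, 0.49 without SAS control replicate 1 and 0.52 without SAS control replicate 2 (adjusted p from 2.55e-06 to 0.155). MT-TA, for alanine, had 4, 8 and 3 raw counts in the control libraries, 17, 6 and 16 after RT, 18, 20 and 17 with HT, and 15, 10 and 22 with HT + RT in SAS. Its FaDu counts were 8, 14 and 8 in the control libraries, 4, 9 and 12 after RT, 11, 22 and 6 with HT and 10, 8 and 15 with HT + RT. In SAS all heated libraries were above the controls after scaling, but no control library passed the filter. MT-TA entered the test after HT through its heated libraries alone and was too low for a test after RT or HT + RT, so those tests are not used. With the filter set on the FaDu libraries it passed after HT (1.81, adjusted p = 0.0126, over all alternatives 0.00438 to 0.0482).

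Between the untreated lines, 9 of 18 tRNA genes were higher in FaDu and 4 lower, beside 38.6% and 36.4% of all genes, so such differences were common between the lines. MT-TS1 and MT-TD, which passed the filter through SAS alone, are 2 of the 4. MT-TE, for glutamate, had 104, 188 and 296 raw counts in the FaDu and 47, 36 and 54 in the SAS control libraries. MT-TS2, for serine, had 58, 92 and 106 in FaDu and 25, 28 and 20 in SAS. MT-TH, for histidine, had 42, 76 and 98 in FaDu and 22, 12 and 31 in SAS. After scaling, the FaDu controls were all above the SAS controls for each of these. The log2 differences were 1.85 ± 0.29 (adjusted p = 0.000168) for MT-TE, 1.59 ± 0.25 (adjusted p = 0.000164) for MT-TS2 and 1.50 ± 0.36 (adjusted p = 0.00278) for MT-TH. MT-TL2, the leucine tRNA gene before MT-ND5, had 121, 227 and 248 in FaDu and 66, 48 and 108 in SAS, which overlapped after scaling; it differed by 1.20 ± 0.30 (adjusted p = 0.00413) and was not altered at 0.95 without SAS control replicate 2 (adjusted p from 2.17e-10 to 0.0229). MT-TT, 1 of the 9 and with 2 of 3 SAS controls over the filter, differed by 1.47 ± 0.36 (adjusted p = 0.00326), and with the filter set on the treated libraries by 1.47, adjusted p = 0.00326, over all alternatives 6.02e-05 to 0.0172.

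The glycine tRNA gene MT-TG had 53, 68 and 63 raw counts in the control libraries, 80, 53 and 60 after RT, 76, 103 and 105 with HT, and 64, 63 and 117 with HT + RT in FaDu. SAS had 20, 27 and 25 raw counts in the control libraries, 12, 27 and 26 after RT, 51, 39 and 63 with HT, and 21, 37 and 57 with HT + RT. Libraries after HT were all above the controls in both lines, and the FaDu controls above the SAS controls. MT-TG changed by 1.05 ± 0.28 (adjusted p = 0.0176) after HT in SAS, 0.82 ± 0.19 (adjusted p = 0.0196) after HT in FaDu, and stood 1.14 ± 0.25 (adjusted p = 0.00161) higher in FaDu controls. The SAS value was not altered at 0.89 without SAS control replicate 1 and 0.89 without SAS HT replicate 3 (adjusted p from 0.00342 to 0.0746), and the FaDu value no longer passed at 0.73 without FaDu control replicate 3, 0.79 without FaDu HT replicate 2 and 0.75 without FaDu HT replicate 3 (adjusted p from 0.00207 to 0.0856). The control difference was not altered at 0.99 without SAS control replicate 1 (adjusted p from 0.000168 to 0.00972).

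After HT in SAS, MT-TS2 had 45, 42 and 61 raw counts and MT-TL2 132, 144 and 162, all above the controls after scaling. They rose by 0.98 ± 0.26 (adjusted p = 0.0179) and 0.94 ± 0.25 (adjusted p = 0.0186). MT-TS2 no longer passed at 0.96 without SAS control replicate 1, 0.89 without SAS control replicate 3 and 0.82 without SAS HT replicate 3 and was altered at 1.10 without SAS control replicate 2, 1.01 without SAS HT replicate 1 and 1.11 without SAS HT replicate 2 (adjusted p from 0.00746 to 0.0784). MT-TL2 no longer passed at 0.82 without SAS control replicate 1, 0.70 without SAS control replicate 2 and 0.87 without SAS HT replicate 3 and was altered at 1.35 without SAS control replicate 3 (adjusted p from 1.45e-05 to 0.0749). MT-TE did not pass in any treatment comparison under any setting tried, nor did MT-TH by edgeR with all libraries, the filter, 2 groups at a time and no block. Without SAS control replicate 3 MT-TH passed after HT in SAS (1.14, adjusted p = 0.0352, over all alternatives 0.0352 to 0.342). With the block MT-TH passed after HT in FaDu (0.56 ± 0.20, adjusted p = 0.0452, over all alternatives 0.0452 to 0.36) and after HT + RT in SAS (0.96 ± 0.29, adjusted p = 0.0113, over all alternatives 0.0113 to 0.263), the last also with no filter, with all 4 groups in 1 fit and without SAS control replicate 3.

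The treated FaDu libraries had 158, 152 and 273 after RT, 158, 194 and 153 with HT and 249, 177 and 320 with HT + RT raw counts of MT-TE, and the SAS libraries 39, 71 and 77 after RT, 59, 47 and 47 with HT and 55, 47 and 49 with HT + RT. MT-TH counts were 68, 44 and 89 after RT, 91, 93 and 86 with HT and 68, 41 and 120 with HT + RT in FaDu, against 23, 31 and 31 after RT, 37, 39 and 37 with HT and 33, 32 and 58 with HT + RT in SAS. For MT-TS2 the FaDu counts were 90, 62 and 67 after RT, 90, 129 and 111 with HT and 72, 86 and 203 with HT + RT, and in SAS those of the other groups were 17, 39 and 33 after RT and 23, 27 and 58 with HT + RT. MT-TL2 counts were 181, 127 and 210 after RT, 229, 290 and 235 with HT and 164, 169 and 339 with HT + RT in FaDu, and in SAS 57, 90 and 74 after RT and 79, 70 and 139 with HT + RT.

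The remaining tRNA genes were lysine MT-TK, tryptophan MT-TW, arginine MT-TR, asparagine MT-TN and cysteine MT-TC. MT-TK had 2 to 30 raw counts per library and was too low to be tested in any comparison of 2 groups, MT-TW had 3 to 33 and MT-TR 1 to 19. MT-TN had 331 to 1056 and MT-TC 378 to 1867. By edgeR with all libraries, the filter, 2 groups at a time and no block, MT-TC alone of these 5 passed in a treatment comparison. It passed after HT + RT in FaDu (0.86 ± 0.15, adjusted p = 0.00373), with all libraries above the controls. Over all alternatives, the lowest adjusted p after HT in SAS was 0.0237 for MT-TN and 0.0313 for MT-TC. Their log2 fold changes there ran from -0.61 to -0.07 and from -0.37 to -0.05, all lower. After HT + RT in FaDu the lowest adjusted p of MT-TN was 0.0336, with log2 fold changes from -0.27 to 0.68. With the block MT-TW, MT-TR, MT-TN and MT-TC passed after HT in FaDu, where 2 of 3 control libraries of MT-TW and 0 of 3 of MT-TR were over the filter, MT-TN and MT-TC after RT in SAS, and MT-TC after HT + RT in both lines. The results of MT-TW and MT-TR are not used. In all, 29 of the 35 chrM genes were tested in all 7 comparisons of 2 groups, 5 in some and 1 in none.

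Nuclear genes that transcribe, process and translate mitochondrial RNA are given next, and their lists were not tested against all genes. Of 46 genes of the mitochondrial expression machinery, 1 rose and 10 fell after HT in FaDu, 1 and 11 after HT + RT, 0 and 9 after HT in SAS and 1 and 5 after HT + RT. Among all genes tested, 7.95% rose and 9.69% fell after HT in FaDu, 9.52% and 9.78% after HT + RT, 12.2% and 11.4% after HT in SAS, and 13.6% and 11.5% after HT + RT. The list medians were -0.11, -0.10, -0.08 and -0.06, against 0.00 to 0.01 for all genes. MRM1, which methylates mitochondrial rRNA, had 17.5, 19.9 and 19.2 CPM in FaDu controls and 7.95, 8.2 and 7.02 after HT, all lower (-1.27 ± 0.11, adjusted p = 0.00019). TRMT10C, a subunit of the RNase P that frees tRNA 5′ ends, had 83.5, 83.5 and 71.2 in SAS controls and 39.9, 43.6 and 36.7 after HT, all lower (-0.95 ± 0.09, adjusted p = 9.23e-06). In FaDu TRMT10C changed by -0.39 ± 0.07 (adjusted p = 0.00448) after HT, and the lines differed (0.59 ± 0.11, adjusted p = 0.00618). TFB2M, the transcription initiation factor, fell in FaDu from 37.6, 34.9 and 35.2 to 24.5, 22.1 and 21.8 CPM (-0.63 ± 0.08, adjusted p = 0.00125).

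Further members named by the same rule were FASTKD2, a granule protein of mitochondrial RNA, at -0.46 ± 0.07 after HT in FaDu and -0.52 ± 0.08 in SAS, FASTKD3 at -0.62 ± 0.12 in SAS, the tRNA methyltransferase TRMT5 at -0.92 ± 0.09 in FaDu, and FASTKD1, which rose in FaDu (0.39 ± 0.11, adjusted p = 0.0398). MRM1 was also altered after HT + RT in FaDu (-1.62 ± 0.16, adjusted p = 0.000202). Of the regulators of mitochondrial biogenesis, 1 rose and 4 fell of 11 tested after HT in FaDu, and 2 rose and 1 fell of 10 in SAS, beside the shares of all genes given above. After HT + RT the counts were 1 and 2 in FaDu and 1 and 1 in SAS. PPRC1, a coactivator of the PGC-1 family, changed by -1.12 ± 0.11 (adjusted p = 0.000421) in FaDu and -0.93 ± 0.11 (adjusted p = 9.6e-05) in SAS. ESRRG was altered in FaDu (-1.27 ± 0.36, adjusted p = 0.041). NRF1 moved in opposite directions, with -0.31 ± 0.09 (adjusted p = 0.0385) in FaDu and 0.29 ± 0.09 (adjusted p = 0.0261) in SAS, and the difference passed (-0.58 ± 0.11, adjusted p = 0.00669). MYC rose in both, by 0.47 ± 0.14 (adjusted p = 0.0457) in FaDu and 0.24 ± 0.08 (adjusted p = 0.0495) in SAS.

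The enzymes that charge mitochondrial tRNAs gave 0 of 19 higher by edgeR or DESeq2 in every treatment comparison (0 at an unadjusted p under 0.05 as well, apart from 1 after HT in SAS), and 4, 5, 4 and 6 lower after HT and HT + RT in FaDu and in SAS, where 9.69%, 9.78%, 11.4% and 11.5% of all genes fell. Their medians were -0.13, -0.10, -0.11 and -0.11. PARS2, for proline, was altered after HT in FaDu (-1.06 ± 0.15, adjusted p = 0.00178) and MARS2, for methionine, after HT in SAS (-1.02 ± 0.17, adjusted p = 0.001). TARS2, for threonine, changed by -0.53 ± 0.07 (adjusted p = 0.00184) in FaDu and -0.63 ± 0.09 (adjusted p = 0.000246) in SAS. For nuclear-encoded subunits of the same complexes after HT, of 37 complex I, 10 complex III, 11 complex IV and 15 complex V genes, 1, 1, 1 and 2 rose in FaDu and 0, 0, 1 and 2 in SAS, while 7.95% and 12.2% of all genes rose. DESeq2 gave 1, 1, 1 and 1 in FaDu and 0, 0, 0 and 1 in SAS. After HT 0 were lower by edgeR or DESeq2 (1 complex III gene in FaDu at an unadjusted p under 0.05), while 9.69% and 11.4% of all genes fell. After HT + RT in FaDu 1 complex I gene was higher and 1 complex III gene lower by each tool. The genes that passed by edgeR after HT, named after their values were seen, were NDUFA10, UQCRQ, COX6A1, ATP5F1E and ATP5ME in FaDu and COX6A1, ATP5F1D and ATP5F1E in SAS. After HT + RT in SAS, when 11 of 13 mitochondrial mRNAs rose, COX6A1 and ATP5F1E were higher, and the complex I and complex III lists had 0 (3 and 0 at an unadjusted p under 0.05, 0 by DESeq2). Medians of the nuclear lists after HT + RT in SAS were 0.07, 0.02, 0.08 and -0.01. After RT 0 genes of the machinery, regulator, enzyme and subunit lists passed by edgeR or DESeq2 in either line. At an unadjusted p under 0.05 by edgeR there were 4 machinery genes, 1 regulator and 2 enzymes in FaDu, 2 machinery genes and 1 enzyme in SAS, and 0 subunits.

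Copies of mitochondrial genes that lie in nuclear chromosomes could take reads from chrM, and 393 such pseudogenes were in the tables. Together they held 1.39% as many counts as the chrM genes, and 122 had at least 1 count. MTATP6P1 had 118036 counts in all, MTCO1P12 6057, MTND2P28 5418, MTCO2P12 260, MTND4P12 220 and MTND5P11 135. MTCO1P12, a copy of MT-CO1, had 131, 200 and 132 raw counts in the SAS controls and 230, 310 and 194 after HT + RT (0.70 ± 0.21, adjusted p = 0.031). MTND2P28 rose in the same comparison (0.58 ± 0.19, adjusted p = 0.0408). MTND5P11 had 6, 4 and 8 and 16, 13 and 17 raw counts there and passed the filter through the treated libraries only, so no change is claimed. Between controls MTCO1P12 (0.86 ± 0.17, adjusted p = 0.000734) and MTATP6P1 (0.59 ± 0.12, adjusted p = 0.00113) were higher in FaDu. How reads were shared between the copies was not tested.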

How the data were processed

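RNA-seq read counts per gene, deposited as raw counts by the authors, were used for 24 libraries in 8 groups of 3. The sources name bcl2fastq, DESeq2 and the genome build mm9, although the identifiers are human Ensembl genes; the aligner, the counting step and the strand setting are not given in the sources used here. Members and lists were chosen with earlier results of these data known. Of the 57500 identifiers, 56898 were found in GENCODE v29.

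All genes were fitted with edgeR 4.0.16 in R 4.3.3 (TMM scaling, filterByExpr with a minimum count of 10, quasi-likelihood test), 2 groups at a time, with Benjamini-Hochberg adjustment over all genes tested. Interaction terms were fitted on 12 libraries. Altered means adjusted p under 0.05 and absolute log2 fold change over 1. CPM used TMM-scaled library sizes, except the summed CPM of markers, which used total counts. Shares per library were compared by two-sided exact permutation within strata (python 3.11.15, scipy 1.17.1). Figures used matplotlib 3.10.9. The edgeR fit of 2 groups was tested on counts simulated from the FaDu HT comparison, with the same dispersion for all genes. The interaction fits, the other settings and the permutation tests were not tested in this way.

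Values per library were given for each chrM gene altered in any comparison, the gene of each complex with the most counts per kb and with the largest change after HT, and MT-ND6. From each gene list, members altered under treatment were named, with up to 3 per direction with the smallest adjusted p after HT. For nuclear copies the 6 with the most counts were named. Same-numbered libraries shared residuals above a correlation of 0.1 for all 3 FaDu comparisons with treatment and for RT and HT + RT in SAS (0.15 to 0.52), not for HT in SAS or the controls, so a replicate block was tried. Other alternatives were DESeq2 1.42.0, RLE size factors, scaling on nuclear genes only, no filter, a filter that asks for 10 counts in each library, a joint fit of a line's 4 groups, and leaving out each library. Chosen after seeing the data were FaDu replicates 2 and 3 only, a filter set on libraries outside the comparison (the other line for treatments, the treated libraries for the controls, the other treatments for interactions), and the block and the left-out libraries for the mRNA, tRNA and minus-strand shares.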

Additional observations from a re-analysis of the deposited data

Results flagged for a closer look

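MT-TV changed less after heat in FaDu than in SAS. The test of the difference between the responses passed for HT, with a log2 difference of -1.24, and for HT + RT, with -1.30. Both calls were lost without FaDu control replicate 2, and the HT call also without FaDu control replicate 3 or SAS control replicate 2. Among all genes 2.74% and 3.4% were altered in the same tests. The HT and HT + RT comparisons share the control libraries of both lines.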

How the results depend on the processing

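The 63 results for single genes were recomputed under 875 alternatives in all: 803 kept their direction and side of the threshold, 62 lost the call, 10 gained it and 0 reversed. RLE size factors and scaling on nuclear genes changed the call of none of these 63 results. The filter set on libraries outside the comparison, chosen after seeing the data, changed the call of none of the 59 it could test. It gave 1 mRNA after HT in SAS, and its counts over all tRNA genes tested are given above.

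Counts are given for altered genes and for mRNAs at adjusted p under 0.05. With no filter on low counts, mRNAs were 3 after RT, 1 after HT and 7 after HT + RT in FaDu, and 11 after RT and 10 after HT in SAS, 9 of the last higher and 1 lower; altered genes were 1 after RT in FaDu, 4 after RT in SAS and 2 for each difference between the lines in heat response. DESeq2 gave 1 mRNA after RT and 0 after HT + RT in FaDu, 2 altered after RT in SAS, and 2 for each heat difference. At least 10 counts in every library gave 0 altered after RT in SAS. All 4 groups in 1 fit gave 0 mRNAs after HT + RT in FaDu, 1 after HT and 7 after HT + RT in SAS. FaDu replicates 2 and 3 only gave 5, 9 and 5 mRNAs after RT, HT and HT + RT, and 2 altered for the HT difference. The cause was not tested.

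With the replicate block, pairing same-numbered libraries, mRNAs were 4 after RT and 5 after HT + RT in FaDu, and 5 after RT and 6 after HT in SAS; altered genes were 1 after RT in FaDu, 2 after RT in SAS and 2 for each heat difference. Altered genes after HT in FaDu went from 4 to 6 (MT-TM, and MT-TR, whose controls did not pass the filter), mRNAs after HT + RT in SAS from 11 to 12, and mRNAs between the controls from 10 higher and 0 lower to 10 higher and 1 lower, MT-ND1. Of the 6 after HT in SAS, 5 were higher and MT-ND3 lower. Same-numbered libraries did not share residuals for HT in SAS or between the controls, so the block has no such basis there.

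Leaving out 1 library, mRNAs ran from 0 to 4 after HT in FaDu, 0 to 1 after HT + RT in FaDu and 0 to 4 after HT in SAS. Altered genes ran from 0 to 1 after RT in SAS and 0 to 2 for each heat difference. Irradiated minus unirradiated ran from -0.137 to 0.135 points for the FaDu chrM share, -0.139 to 0.131 for the FaDu mRNA share and -0.0890 to 0.0331 for the SAS minus-strand share; heated minus unheated ran from -0.000793 to 0.271 for the FaDu mRNA share. The alternative that leaves the rRNA genes out was not run, since they are not in the tables. Genes at a few counts, MT-TK above all, limit what could be seen.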

Other observations

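MTND1P9, a nuclear copy of MT-ND1 chosen after its values were seen, had 0, 0 and 0 raw counts in the FaDu control libraries, 0, 1 and 0 after RT, 6, 6 and 12 with HT and 2, 5 and 13 with HT + RT. In SAS it had 0, 0 and 0 in the control libraries, 0, 0 and 0 after RT, 1, 0 and 4 with HT and 1, 2 and 1 with HT + RT. All heated FaDu libraries were above all unheated ones.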
